A study of Mus musculus with 34 samples.

Results

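Kcnj6 and Kcnma1, a pair of mouse genes for pore-forming potassium channel subunits, were followed across all 34 2-colour arrays of a study of L-arginine in the muscles of dystrophic mice. They are 2 of the 632 genes that could be compared between untreated and treated mice. They were selected on their measured difference in mdx diaphragm, so values from mdx diaphragm are given below as descriptions, and no difference or correlation that includes them is offered as a test. Each gene had 1 probe among the 1200 of the untreated value table and 1 among the 1200 of the L-arginine table, 4 probes in all.

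Kcnj6 encodes a subunit of the inward rectifier channels that open when G protein beta-gamma subunits bind them, and is known best from neurons and endocrine cells. Kcnma1 encodes the pore of the large-conductance channel that opens with depolarisation and calcium, is abundant in smooth muscle and is also present in skeletal muscle fibres. L-arginine is the substrate of nitric oxide synthases, and the cyclic GMP-dependent kinase downstream of nitric oxide is known to increase the opening of the Kcnma1 channel. In mdx mice, which lack dystrophin, nitric oxide synthase is largely lost from the muscle fibre membrane, and the diaphragm is the most severely affected muscle.

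The arrays fall into 8 groups of 1 tissue (diaphragm or hindlimb muscle), 1 strain (BL10, the control strain, or mdx) and 1 treatment (none, or L-arginine at a dose and duration that the labels do not give). Each group had 1 array at 3, 5, 9 and 12 weeks of age, and the untreated mdx groups had a further 12-week array each (Sample 1 and Sample 2). By the labels, RNA of the same strain aged 12 weeks filled channel 1 of each array, the 12-week arrays included, and the array's own sample filled channel 2. They do not say whether the 12-week RNA of treated arrays came from treated mice. Each deposited value was read as a ratio of the named sample to that 12-week RNA. This direction is likely but not stated. If it were turned, every sign below would turn with it. A log2 ratio of 0 therefore means equal signal in both channels, and a ratio is not an expression level. All untreated arrays lie in 1 table and all treated arrays in another, of a different platform, so treatment and platform cannot be told apart. No label ties arrays to individual animals, and p-values here reflect array-to-array spread alone, part of which may be technical. For 1 treated array, titled BL10 hindlimb at 9 weeks, both channels are labelled mdx, and the title was followed.

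Between 0 and 225 values per untreated array and between 2 and 36 per treated array were 0 or below, and were treated as missing. The median ratio per array ran from 0.73 to 1.08 in the untreated table and from 0.94 to 1.22 in the L-arginine table. Total counts do not apply to arrays, and the number of arrays limits the precision. Because values are ratios within 1 tissue and strain, they cannot show whether the tissue carries the markers of its label.

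In mdx diaphragm both channel genes had ratios above 1 on the young untreated arrays and ratios below 1 on every treated array. For Kcnj6 the untreated ratios were 2.25 at 3 weeks, 5.75 at 5 weeks, 1.57 at 9 weeks, and 1.22 and 1.15 on Sample 1 and Sample 2 at 12 weeks. The treated ratios were 0.69, 0.56, 0.6 and 0.49 at 3, 5, 9 and 12 weeks. All 5 untreated arrays were above all 4 treated arrays, the 5-week untreated array stood highest, and the treated arrays lay close together. The mean log2 ratio was 0.97 ± 0.95 (SD, n = 5) untreated and -0.78 ± 0.21 (SD, n = 4) treated, a difference of -1.75.

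Kcnma1 also had higher untreated than treated ratios, with 1 untreated value missing. Its untreated ratios were 2.27 and 3.71 at 3 and 5 weeks and 0.96 and 1.13 on Sample 1 and Sample 2 at 12 weeks, while the 9-week value was deposited as -5.66 and has no logarithm. The treated ratios were 0.71, 0.64, 0.25 and 0.62 at 3, 5, 9 and 12 weeks. The measured groups did not overlap, the 12-week untreated arrays sat near a ratio of 1, and the 9-week treated array lay far below the other treated arrays. The mean log2 ratio was 0.80 ± 0.91 (SD, n = 4) untreated and -0.96 ± 0.70 (SD, n = 4) treated, a difference of -1.75. With the negative 9-week value set to the lowest positive ratio of its array, an alternative chosen after seeing the data, the Kcnma1 difference was -0.27, so its size rests on how that 1 array is treated.

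Among the ages with a value in both tables, the same-age differences in mdx diaphragm were largest at 5 weeks for both genes. Kcnma1 has no difference at 9 weeks, where its treated array was lowest, so its largest age is not known. The Kcnj6 difference in log2 ratio, treated minus untreated, was -1.71 at 3 weeks, -3.36 at 5 weeks, -1.39 at 9 weeks and -1.27 at 12 weeks. The Kcnma1 difference was -1.68 at 3 weeks, -2.54 at 5 weeks and -0.75 at 12 weeks. Each of these sets 1 treated array against 1 untreated array, or against the mean of both samples at 12 weeks. All of the differences were negative.

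**Figure D1:**
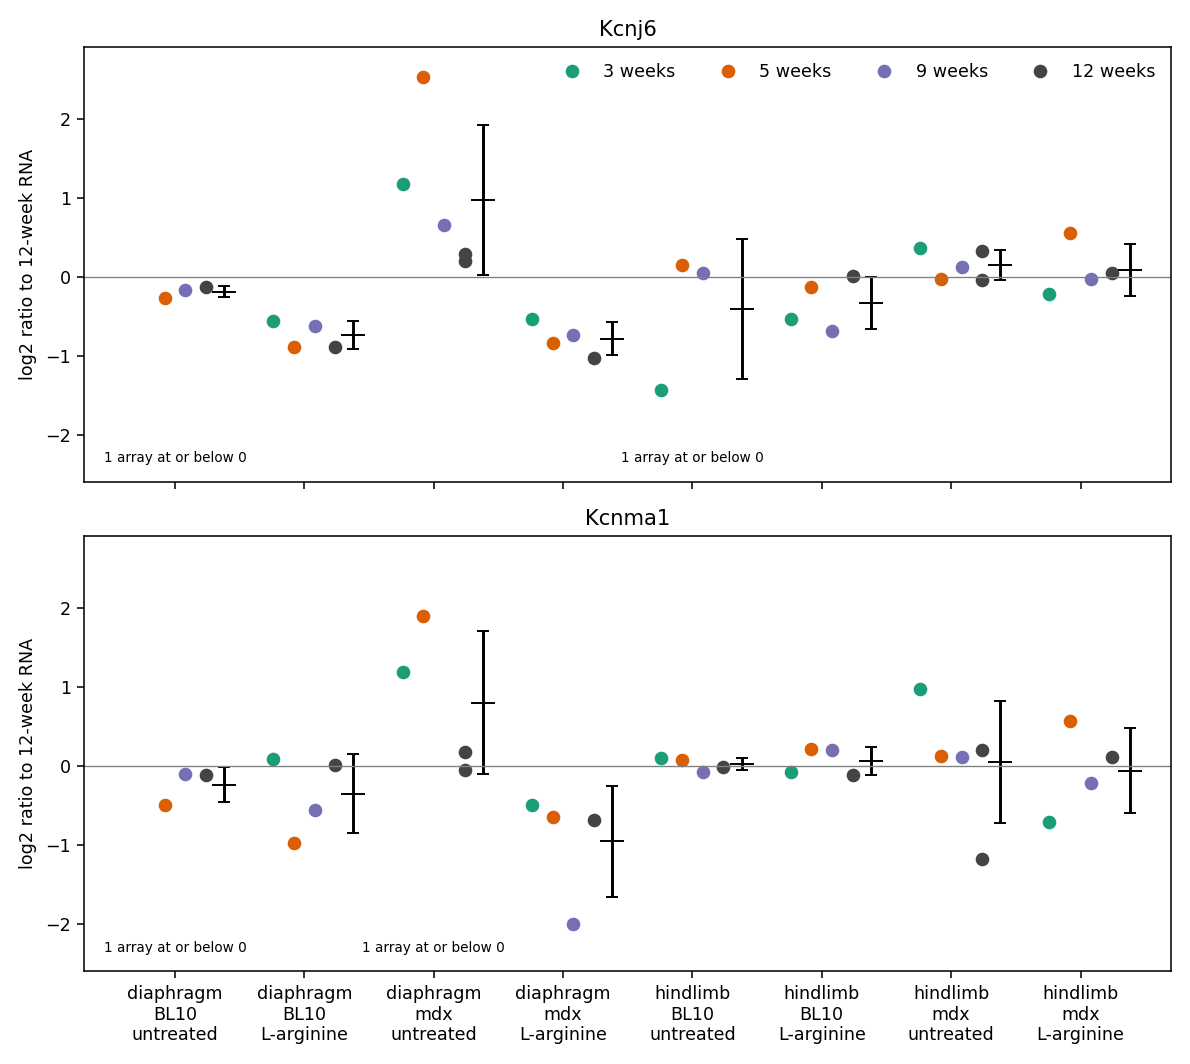
The log2 ratio to 12-week RNA (vertical axis) of Kcnj6 (upper panel) and Kcnma1 (lower panel) is plotted for each array of the 8 groups, coloured by age, with the group mean and SD as a black bar beside the points. Untreated mdx diaphragm holds the highest points of both genes, 2.52 for Kcnj6 and 1.89 for Kcnma1 at 5 weeks, and the notes mark groups with an array whose ratio was 0 or below and could not be drawn.

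By the size of this difference Kcnma1 was 7th and Kcnj6 8th from the lowest of the 632 genes, whose median was -0.05 with 55.4% of genes below 0. The 3 genes ranked just lower were Fblim1, a filamin-binding adaptor of cell adhesions, at -1.79, Pck1, the gluconeogenic enzyme, at -1.84 and Arsk, a lysosomal sulfatase, at -1.87. The 3 ranked just higher were Il1b, the inflammatory cytokine, at -1.75, Stard3nl at -1.57 and Abca8a, a lipid transporter, at -1.43. The untreated and the treated values of mdx diaphragm did not overlap for 30 of 631 genes with at least 3 values in each (4.75%), Kcnj6 and Kcnma1 among them. The selection used this contrast, so nothing is read from that share.

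Both genes were selected on their difference in mdx diaphragm. The 250 bases before their annotated transcript starts are shown side by side (RefSeq, build GRCm38.p6, all on the minus strand). Kcnj6 has 2 such starts in the table. Capitals mark the GC box GGGCGG, searched on both strands, so that its complement reads CCGCCC.
Kcnma1, chr14:24004206-24004455: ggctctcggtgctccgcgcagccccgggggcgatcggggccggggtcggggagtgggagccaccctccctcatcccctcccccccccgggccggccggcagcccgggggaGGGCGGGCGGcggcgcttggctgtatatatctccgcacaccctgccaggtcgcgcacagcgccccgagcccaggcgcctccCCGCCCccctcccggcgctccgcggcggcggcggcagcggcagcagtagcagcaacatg
Kcnj6, chr16:94997697-94997946: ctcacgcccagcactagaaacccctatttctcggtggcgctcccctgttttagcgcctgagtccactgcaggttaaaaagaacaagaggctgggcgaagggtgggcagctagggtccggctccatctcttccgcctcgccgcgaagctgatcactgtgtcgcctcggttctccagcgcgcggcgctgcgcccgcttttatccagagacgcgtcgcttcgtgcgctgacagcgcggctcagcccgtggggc
Kcnj6, the other start, chr16:94856691-94856940: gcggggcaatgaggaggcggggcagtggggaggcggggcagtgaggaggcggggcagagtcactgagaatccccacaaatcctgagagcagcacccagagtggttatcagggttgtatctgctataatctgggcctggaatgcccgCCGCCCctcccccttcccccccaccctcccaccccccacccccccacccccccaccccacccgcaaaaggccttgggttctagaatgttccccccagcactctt
The Kcnma1 window had 3 GC boxes, of which 2 overlap, against 0 and 1 in the Kcnj6 windows, and 32.7% of all 32851 windows of this length hold at least 1. Its GC content was 79.2%, at the 98.6th percentile of all windows, against 64% and 65.6% for Kcnj6 and a median of 52.4%. Neither the E-box CANNTG nor the letters TGACG, the core of a cyclic AMP response element, occurred in any of the 3 windows on either strand. Those motifs are present in 66.2% and 17.8% of all windows. A match or its absence is a description of these letters only.

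Across the 8 groups, Kcnj6 ranked from untreated mdx diaphragm at the top to the treated diaphragm groups of both strains at the bottom. Its mean log2 ratio was 0.15 ± 0.19 (SD, n = 5) in untreated mdx hindlimb and 0.09 ± 0.33 (SD, n = 4) in treated mdx hindlimb. It was -0.19 ± 0.07 (SD, n = 3) in untreated BL10 diaphragm, -0.34 ± 0.33 (SD, n = 4) in treated BL10 hindlimb and -0.41 ± 0.89 (SD, n = 3) in untreated BL10 hindlimb. Treated BL10 diaphragm stood at -0.74 ± 0.18 (SD, n = 4), next to treated mdx diaphragm. Any neighbours in this order differed by less than the larger of their SDs. Ratios below 0 were deposited for untreated BL10 diaphragm at 3 weeks (-0.58) and untreated BL10 hindlimb at 12 weeks (-0.25), and the wide spread of the latter group came from its 3-week array at -1.43.

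Kcnma1 had means near 0 in all 4 hindlimb groups. They were 0.06 ± 0.18 (SD, n = 4) in treated BL10, 0.04 ± 0.78 (SD, n = 5) in untreated mdx, 0.02 ± 0.08 (SD, n = 4) in untreated BL10 and -0.06 ± 0.54 (SD, n = 4) in treated mdx. The mdx hindlimb means hide arrays on both sides, from -1.18 on Sample 1 at 12 weeks to 0.97 at 3 weeks without treatment, and from -0.71 at 3 weeks to 0.57 at 5 weeks with it. BL10 diaphragm stood at -0.24 ± 0.22 (SD, n = 3) untreated, where the 3-week ratio of -0.61 is missing, and at -0.36 ± 0.50 (SD, n = 4) treated. Here too, neighbours in the order of the 8 means differed by less than the larger of their SDs.

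Whether the treated and the untreated tables also differed for these genes outside mdx diaphragm was tested in the 25 other arrays, which the selection did not use. Neither gene passed in BL10 diaphragm, BL10 hindlimb or mdx hindlimb, nor in the mean of these 3 groups (limma, Benjamini-Hochberg over 632 genes, threshold 0.05). In BL10 diaphragm 0 of 632 genes passed (0%, with 47 at an unadjusted p under 0.05), in BL10 hindlimb 2.69% of genes, in mdx hindlimb 2.53% and in the mean 4.91%.

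Kcnj6 in BL10 diaphragm came closest to the pattern of mdx diaphragm. Its untreated ratios were 0.83, 0.89 and 0.91 at 5, 9 and 12 weeks, and its treated ratios were 0.68, 0.54, 0.65 and 0.54 at 3, 5, 9 and 12 weeks. The groups did not overlap, and at each age with both arrays the treated array was lower, by differences of -0.62, -0.45 and -0.75 in log2 ratio at 5, 9 and 12 weeks. The values of these 2 groups did not overlap for 69 of 631 genes (10.9%), 37 of them lower with treatment. The age-adjusted difference was -0.41 ± 0.33 (SE, 95% interval -1.11 to 0.28, limma adjusted p = 0.81), so the fit did not separate the groups.

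Kcnma1 in BL10 diaphragm had treated ratios of 1.06, 0.51, 0.68 and 1.01 at 3, 5, 9 and 12 weeks beside untreated ratios of 0.71, 0.93 and 0.92 at 5, 9 and 12 weeks. The groups overlapped. The difference was -0.27 ± 0.40 (SE, 95% interval -1.12 to 0.57, limma adjusted p = 0.887). Setting negative ratios to the lowest positive ratio of the array turned the sign of both BL10 diaphragm differences, to 1.07 for Kcnj6 and 1.48 for Kcnma1, since the untreated 3-week array then carries both genes at its floor.

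In hindlimb the values of treated and untreated arrays overlapped for both genes in both strains. Treated and untreated values did not overlap for 8.36% of 598 genes in BL10 hindlimb and 10.2% of 627 in mdx hindlimb. Kcnj6 differed by 0.06 ± 0.32 (SE, 95% interval -0.64 to 0.75, limma adjusted p = 0.943) in BL10 and by -0.05 ± 0.28 (SE, 95% interval -0.65 to 0.55, limma adjusted p = 0.959) in mdx. Kcnma1 differed by 0.04 ± 0.36 (SE, 95% interval -0.72 to 0.79, limma adjusted p = 0.971) in BL10 and by -0.17 ± 0.34 (SE, 95% interval -0.89 to 0.55, limma adjusted p = 0.835) in mdx. The typical difference, the median of the 632 genes, was 0.24 in BL10 and 0.22 in mdx hindlimb, so all 4 values of the pair lay below it. Centring each array turned both BL10 values negative, to -0.06 for Kcnj6 and -0.13 for Kcnma1.

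Averaged over the 3 groups, the difference was -0.14 ± 0.18 (SE, 95% interval -0.51 to 0.24, limma adjusted p = 0.664) for Kcnj6 and -0.14 ± 0.21 (SE, 95% interval -0.59 to 0.31, limma adjusted p = 0.715) for Kcnma1. With the floor for ratios of 0 or below both turned positive, to 0.75 and 0.48. The difference between mdx diaphragm and these groups was not tested, since the selection used mdx diaphragm.

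**Figure D2:**
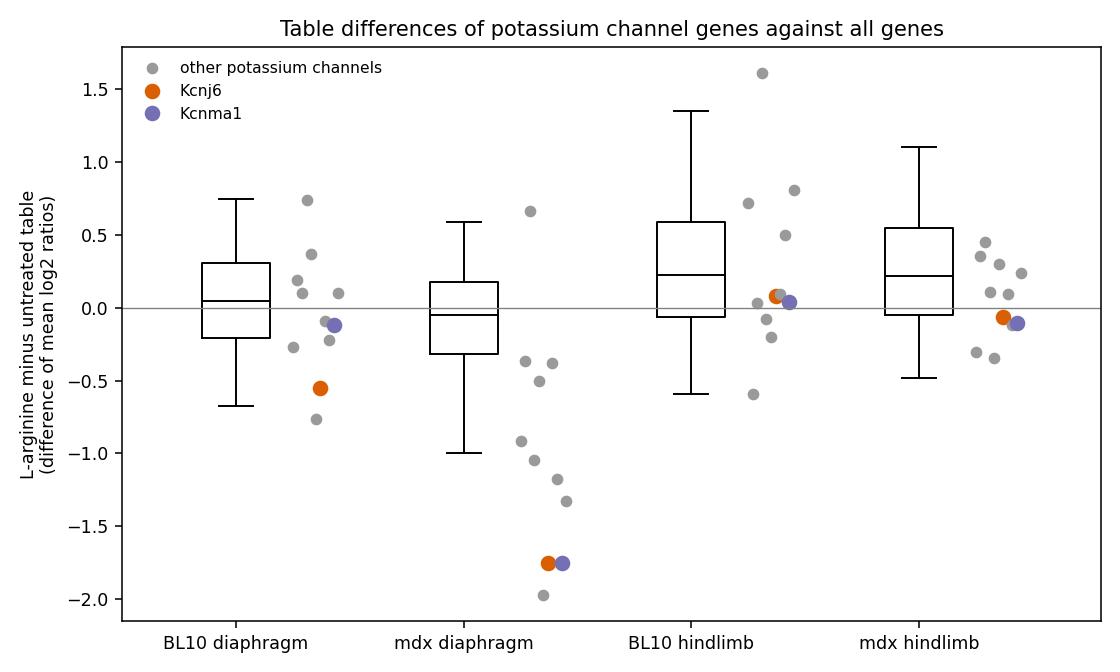
Each point is a potassium channel gene's mean log2 ratio in the L-arginine table minus that in the untreated table (vertical axis), without age adjustment, in 4 tissue and strain groups. Boxes show all comparable genes (median, quartiles, whiskers at the 5th and 95th percentiles). In mdx diaphragm 10 of 11 points lie below 0, and Kcnj6 and Kcnma1 both lie at -1.75.

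Strain, tissue and age were compared within each table, again without mdx diaphragm, and neither gene passed in any of these 10 comparisons. Among untreated arrays 0 of 1014 features passed in each (0%), with 123 at an unadjusted p under 0.05 between strains, 105 between tissues and 69, 23 and 17 for 3, 5 and 9 weeks against 12 weeks. Among treated arrays 3 of 1019 features passed between strains (0.294%, with 150 unadjusted) and 0 elsewhere (0%), with 92 unadjusted between tissues and 65, 83 and 19 for the ages. The Kcnj6 ratio was higher in mdx than in BL10 hindlimb by 0.53 ± 0.37 (SE, limma adjusted p = 0.584) untreated and by 0.42 ± 0.23 (SE, limma adjusted p = 0.426) treated, and neither passed. The Kcnma1 strain differences were 0.09 ± 0.34 (SE, limma adjusted p = 0.93) and -0.12 ± 0.33 (SE, limma adjusted p = 0.898).

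In treated BL10 mice both genes had higher ratios in hindlimb than in diaphragm, by 0.40 ± 0.23 (SE, limma adjusted p = 0.616) for Kcnj6 and 0.41 ± 0.33 (SE, limma adjusted p = 0.693) for Kcnma1, and neither passed. Without treatment the tissue differences were -0.07 ± 0.41 (SE, limma adjusted p = 0.951) and 0.10 ± 0.39 (SE, limma adjusted p = 0.918). The age with the largest untreated value was 3 weeks. Kcnma1 then stood 0.79 ± 0.44 (SE, limma adjusted p = 0.716) above 12 weeks and Kcnj6 at -0.47 ± 0.47 (SE, limma adjusted p = 0.76) against it. Neither sign was stable, since a floor for ratios of 0 or below gave -1.43 for Kcnma1, and leaving out the untreated BL10 hindlimb array at 3 weeks gave 0.23 for Kcnj6. In the L-arginine table the same differences were -0.24 ± 0.39 (SE, limma adjusted p = 0.907) and -0.16 ± 0.26 (SE, limma adjusted p = 0.908). A difference of 3 weeks from 12 weeks was therefore not detectable for either gene outside mdx diaphragm at this number of arrays, and the 5-week and 9-week differences did not pass either.

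By their selection, Kcnj6 and Kcnma1 both had higher untreated than treated ratios in mdx diaphragm. The arrays outside it were used to ask whether the pair varies together elsewhere. In the untreated table Pearson's r was 0.19 (permutation p = 0.42, n = 11 arrays) and Spearman's rho was 0.655 (permutation p = 0.0332). Adjusted over both tables the p-values were 0.42 and 0.0664. Without the 2 arrays farthest from the median of Kcnj6, r was 0.474 (exact permutation p = 0.208, n = 9). The low r depended on the untreated BL10 hindlimb array at 3 weeks, where Kcnj6 was at -1.43 and Kcnma1 at 0.10. Without it r was 0.665 (permutation p = 0.0329).

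In the L-arginine table r was 0.485 (permutation p = 0.111, n = 12 arrays) and rho 0.378 (permutation p = 0.223), with adjusted p-values of 0.222 and 0.223. Without the 2 farthest arrays r was -0.0636 (permutation p = 0.853), so the positive value rests on them. With group means subtracted first, r was 0.185 untreated and 0.475 treated. A joint variation of the pair outside mdx diaphragm was therefore not established in either table. All of these tests were two-sided.

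**Figure D3:**
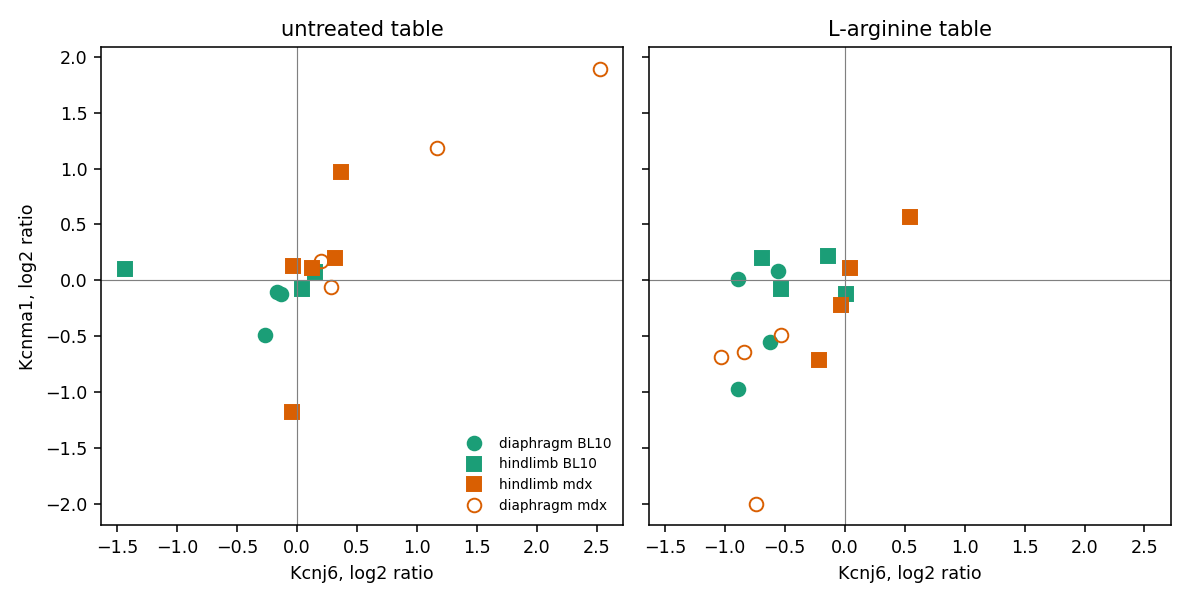
The log2 ratio of Kcnma1 (vertical axis) is set against that of Kcnj6 (horizontal axis) for each array with both values, in the untreated table (left) and the L-arginine table (right). Open circles are mdx diaphragm, which lies in the lower left with treatment and reaches 2.52 and 1.89 in the upper right without it. Of the untreated 12-week arrays, Sample 1 has Kcnma1 at -0.06, and Sample 2 lies at 0.20 and 0.18. The untreated BL10 hindlimb array at 3 weeks stands alone at -1.43.

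The tables held 11 potassium channel genes in all, and in mdx diaphragm 10 of the 11 had a negative difference between treated and untreated arrays, with a median of -1.05 against -0.05 over all genes. This is the contrast that selected the pair, and the genes share arrays, so the count is a description. Kcnj3, the usual partner of Kcnj6 in G protein-gated channels, had the lowest difference, -1.97, from 0.98 ± 1.38 (SD, n = 5) to -0.99 ± 0.13 (SD, n = 4). Kcnj12 and Kcnj2, the strong inward rectifiers that hold the resting potential of muscle, stood at -1.05 and -0.50. Kcnj8, the pore of ATP-sensitive channels of vessels, stood at -0.38.

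Among voltage-gated subunits, Kcns1, a silent modulatory subunit, had a difference of -1.33, Kcna4, an A-type channel, -0.91 and Kcna5, a delayed rectifier, -0.37. The untreated Kcna4 mean was -0.34 ± 2.49 (SD, n = 5), with arrays from -4.32 to 2.45. The two-pore-domain leak channel Kcnk1 stood at -1.18. Kcnc1, a fast delayed rectifier, was the exception at 0.66. Its treated arrays were all above 0, at 0.40 ± 0.12 (SD, n = 4). Treated mdx diaphragm arrays were all below 0 for 8 of the 11 genes, namely Kcna4, Kcnj12, Kcnj3, Kcnj6, Kcnj8, Kcnk1, Kcnma1 and Kcns1. Without treatment, Kcnj6 was the only gene of the 11 above 0 on all 5 arrays. The pair was selected on these arrays and no share over all genes is given here, so both counts are descriptions.

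**Figure D4:**
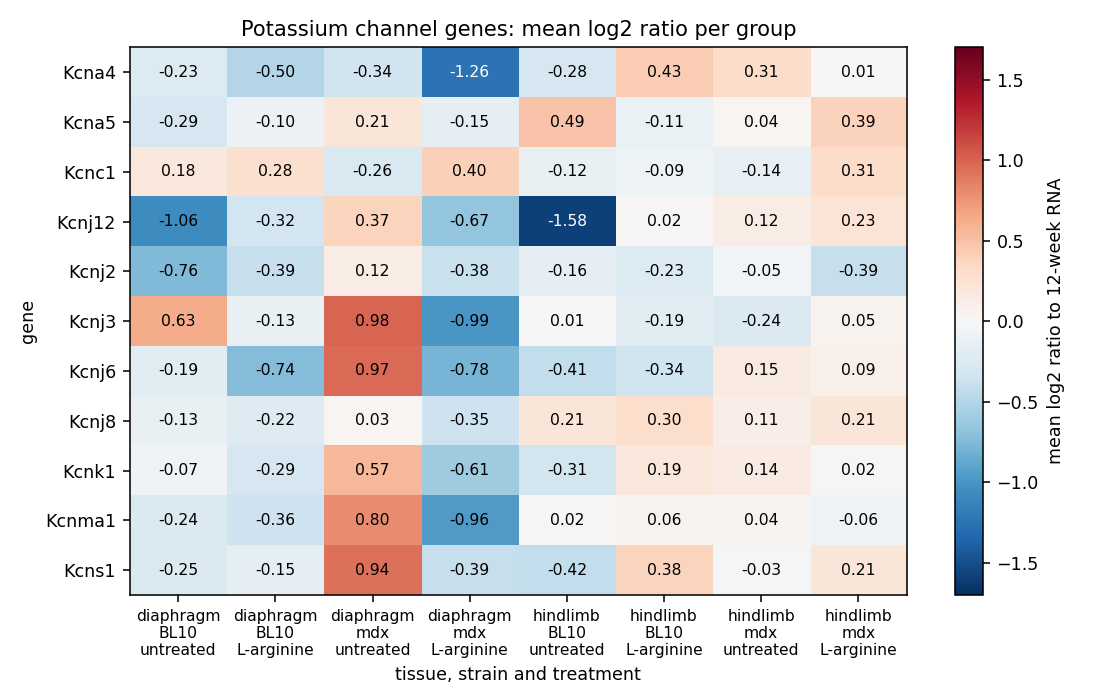
The mean log2 ratio to 12-week RNA (colour and printed value) of the 11 potassium channel genes (rows) in the 8 groups (columns) is shown. The mdx diaphragm columns differ most, with Kcnj3, Kcnj6, Kcns1 and Kcnma1 at 0.80 to 0.98 untreated and -0.99 to -0.39 treated. In the hindlimb columns the value furthest from 0 is that of Kcnj12, -1.58 ± 2.73 (SD, n = 4) in untreated BL10. Its 12-week array there is at -5.64, and the group median is -0.45.

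Outside mdx diaphragm none of the 11 passed in any of the 14 comparisons (limma, shares over all features as above). Between the tables, 6 of 11 were below 0 in BL10 diaphragm (median -0.02, all genes 0.04), 3 in BL10 hindlimb (0.08, all genes 0.24) and 5 in mdx hindlimb (0.02, all genes 0.22). Of 4 other ion transport genes, 3 were above 0 in mdx diaphragm, with Ryr1, the calcium release channel of muscle, at 0.32 and Atp2a2, a calcium pump, at 0.15. Of 6 genes for G protein and second messenger signalling, 3 were above 0 and 3 below. Nos2, the inducible nitric oxide synthase, stood at -0.74 and Prkar1a, a regulatory subunit of protein kinase A, at 0.68. None of these 10 genes passed in the 14 tested comparisons.

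Markers of other cells are given for the same arrays, since the diaphragm also holds other cell types. The mean log2 ratio of 4 macrophage markers ran from -0.34 to 1.31 over untreated and 0.75 to 1.04 over treated mdx diaphragm arrays. For 5 fibroblast markers the ranges were 0.11 to 1.20 and 0.55 to 1.19, and for 16 skeletal muscle markers -0.27 to 0.69 and 0.003418 to 0.17. For 4 liver genes they were -1.08 to 1.01 and -1.32 to 0.11, for 2 fat cell genes -0.39 to 0.46 and -0.57 to -0.03, and for Pecam1, the only 1 of 13 vessel markers compared, -0.17 to 0.80 and -0.47 to -0.01. Of 13 nerve and 7 red blood cell markers 0 could be compared. The part of any of these in the channel values was not tested. In such bulk RNA, fewer cells of a type and less RNA per cell cannot be told apart.

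The position of the probes in the tables is a property that the selection did not use. In the untreated table Kcnma1 (row 889), Kcna4 (890), Kcns1 (892), Kcnj12 (893) and Kcnj6 (894) are near neighbours, and so are Kcna5, Kcnj2, Kcnj3 and Kcnj8 (1190 to 1194). In the L-arginine table Kcnj3, Kcns1, Kcna5 and Kcnma1 are rows 393 to 396, Kcnj6 and Kcnj2 rows 793 and 794, and Kcnj8, Kcnj12, Kcna4 and Kcnk1 lie in rows 1193 to 1197. On some mdx diaphragm arrays, most probes near the members in this order had values on the same side of 0. Within 10 rows of Kcnma1, 14 of 14 measured probes were above 0 on the untreated mdx diaphragm array at 5 weeks and 15 of 16 at 9 weeks, where Kcnma1 itself has no log2 value. Around Kcnj6 the counts were 12 of 13 and 12 of 14, and these windows share rows. In the untreated table each member also lies in the window of the other, and both were selected on these arrays. The neighbour values of the untreated table below include the other member as well. Probes with ratios of 0 or below were left out of these counts. At 5 and 9 weeks they numbered 6 and 4 around Kcnma1, and 7 and 6 around Kcnj6. On the other 3 untreated arrays most neighbours of Kcnj6 were not above 0, with counts of 6 of 14 at 3 weeks and 6 of 17 and 6 of 20 at 12 weeks. Around Kcnma1 the counts on these 3 arrays were 9 of 15, 10 of 18 and 7 of 20. Of all measured probes, 55.9% were above 0 at 5 weeks and 57% at 9 weeks. On the other 3 arrays these shares were 59.2%, 57.1% and 50.7%. Such a count also occurred outside mdx diaphragm, with 18 of 20 around Kcnma1 in untreated mdx hindlimb at 3 weeks.

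With treatment, 1 to 4 of 20 probes around Kcnj6 were above 0 on each mdx diaphragm array, and 4 to 6 of 20 around Kcnma1. Of all measured probes, 41.8% to 50.8% were above 0 on these arrays. The counts around Kcnj6 ran from 1 of 19 to 3 of 19 in treated BL10 diaphragm. In treated hindlimb they ran from 3 of 20 to 12 of 19. In treated mdx diaphragm the median of the neighbours of Kcnj6 averaged -0.70 over the 4 arrays, close to Kcnj6 itself, which differed from them by -0.09 ± 0.26 (SD, n = 4). Within 25 rows the neighbours averaged -0.27 and Kcnj6 differed from them by -0.52 ± 0.14 (SD, n = 4), so the closeness depends on the window. It also rests on unnamed probes. Every row from -8 to -1 before Kcnj6 was unnamed, with means between -2.08 and -0.87 over these treated arrays. All named genes within 10 rows had means above that of Kcnj6, from -0.64 for Fblim1 to -0.08 for Scn4b. In treated BL10 diaphragm the neighbours within 10 rows averaged -0.74 and Kcnj6 differed from them by 0.004395 ± 0.21 (SD, n = 4), while within 25 rows they averaged -0.30 and Kcnj6 differed by -0.44 ± 0.06 (SD, n = 4). In untreated mdx diaphragm Kcnj6 stood above its neighbours within 10 rows by 0.82 ± 0.83 (SD, n = 5), and Kcnma1 above its own by 0.58 ± 0.65 (SD, n = 4). Treated Kcnma1 stood below its neighbours by a difference of -0.59 ± 0.68 (SD, n = 4).

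Taking the neighbours within 10 rows away from each array left a difference between treated and untreated mdx diaphragm of -0.91 for Kcnj6 and -1.17 for Kcnma1, while the neighbours themselves differed by -0.84 and -0.69. For Kcnma1 the neighbours were averaged over 5 untreated arrays, but the remainder over the 4 with a Kcnma1 value. These parts therefore do not add up to the Kcnma1 difference. Within 25 rows the remainders were -1.32 and -1.43. With a running median subtracted, the Kcnj6 difference was -1.29 over 51 rows and -0.89 over 21 rows, and the Kcnma1 difference -1.42 and -1.09. The 21-row window was chosen after seeing the data. The part of row position in the result was not tested further. No label used here says whether row order is an order of printing.

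**Figure D5:**
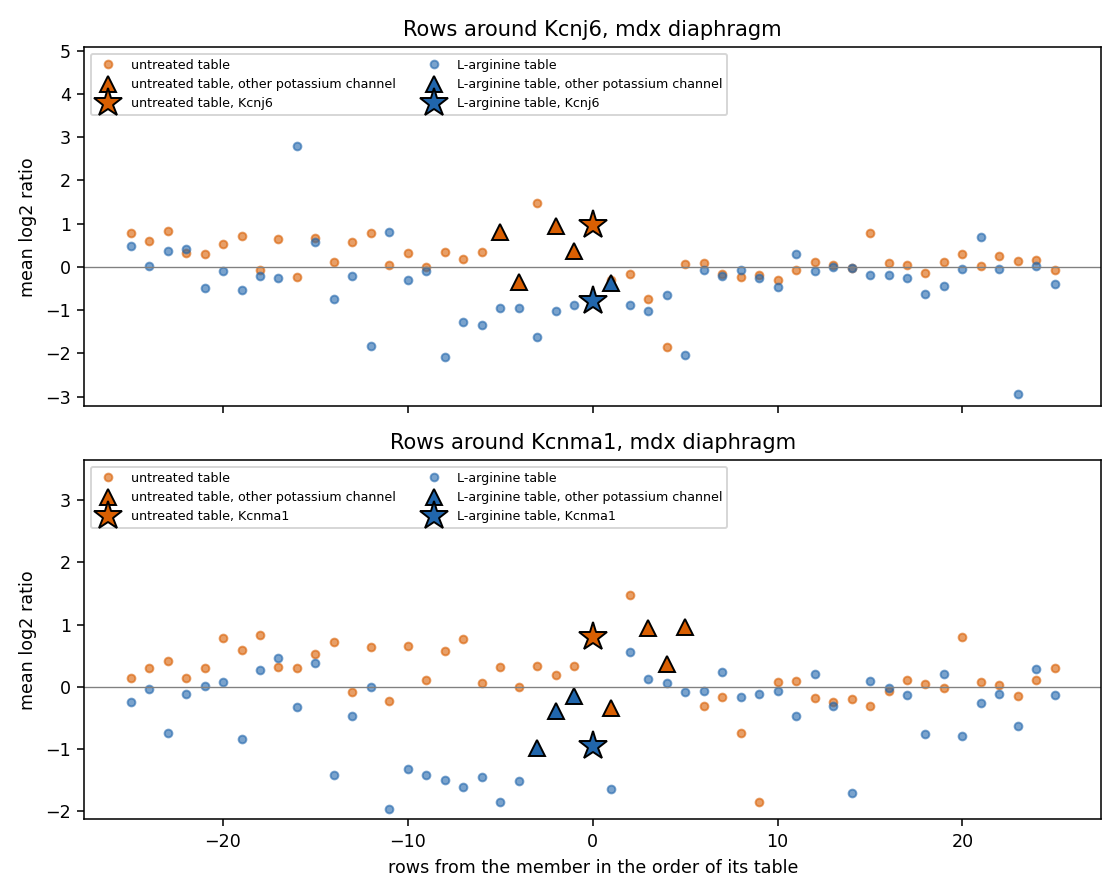
The mean log2 ratio over mdx diaphragm arrays (vertical axis) of each probe within 25 rows of Kcnj6 (upper panel) and Kcnma1 (lower panel) is plotted against its distance in rows, for the untreated table (orange) and the L-arginine table (blue). Stars are the named genes and triangles other potassium channels. The median of treated probes within 10 rows of Kcnj6, averaged over arrays, is -0.70 and that within 25 rows is -0.27, beside the blue star at -0.78.

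Over all arrays with both values, the gene most like Kcnj6 was Fblim1 (r = 0.821 over 31 arrays), followed by Tifa, an adaptor of NF-kappa-B signalling, at 0.76, Kcnma1 at 0.707, Tnf, the inflammatory cytokine, at 0.695 and Tmem259 at 0.68. Without mdx diaphragm these values were 0.798, 0.515, 0.335, 0.662 and 0.674. Fblim1 therefore stayed first of 631 genes, while Kcnma1 fell to rank 193. Fblim1 lies 4 rows from Kcnj6 in the L-arginine table. Kcnj12 and Kcnk1 were also close to Kcnj6, at 0.666 and 0.651.

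The genes most like Kcnma1 were Kcns1 (r = 0.734 over 31 arrays), Kcnj6 at 0.707, Trappc8, a vesicle tethering subunit, at 0.698, Kcnj3 at 0.662 and 2310065F04Rik at 0.659. Without mdx diaphragm they stood at 0.661, 0.335, 0.567, 0.468 and 0.57. Kcna5, in the row next to Kcnma1 in the L-arginine table, was then the most alike of 631 genes (r = 0.688), and Kcns1 was at rank 3. Kcns1 lies 3 rows from Kcnma1 in the untreated table and 2 rows in the L-arginine table. Kcnc1 ran opposite to both members, with r of -0.413 to Kcnj6 and -0.445 to Kcnma1. These correlations are descriptions over arrays that share tables, references and row order.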

How the data were processed

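Total RNA was measured on 34 2-colour arrays. The authors deposited 1 value per probe and array, read here as a linear ratio from the values themselves. Scanner, background correction, normalisation, dyes and scale were not given in any source used here. Gene names came from probes with 1 symbol in the platform annotation. Ratios were turned into log2, those of 0 or below became missing, and nothing further was normalised. Probes of a gene were averaged, and genes with values on at least 75% of the arrays of each table were kept. Tests used limma 3.58.1 (lmFit, eBayes) in R 4.3.3 with group and age terms and Benjamini-Hochberg adjustment at 0.05. The 9 mdx diaphragm arrays stayed out of every fit. Within a table, features were genes and otherwise unnamed probes. The fit was checked on simulated data. Correlations used 100000 permutations (scipy 1.17.1, Python 3.11.15).

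The genes, lists and tests were chosen with earlier results of these data known. Named genes are the 2 members, all potassium channel genes, the 5 genes most like each member by r, the 3 ranked on either side in mdx diaphragm, probes within 3 rows, and the list members furthest from 0. The count of genes without overlap was added after seeing the data. Alternatives were array centring, quantile normalisation, removal of a running median along the table, a floor for ratios of 0 or below, other filters and terms, array weights, all arrays, and leaving out each array.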

Additional observations from a re-analysis of the deposited data

Results flagged for a closer look

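In treated mdx diaphragm the Kcnma1 log2 ratio at 9 weeks was -2.0, while the nearest of the other 3 arrays was at -0.69. The gap was 0.87 of the range of the group, above the critical value of Dixon's ratio. This is given as a description, since the selection used these arrays. In all, 13 sets were examined, each the values of 1 gene in 1 group, and only this 1 was set apart. By chance alone about 1 set in 20 is set apart, and the sets of the 2 genes share arrays. Kcnma1's untreated 9-week array of the same tissue was the array with the negative ratio, -5.66, so no same-age difference exists at 9 weeks. Without the treated 9-week array and each other array in turn, the mdx diaphragm difference of Kcnma1 ran from -2.04 to -1.39.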

How the results depend on the processing

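For the 20 tested member differences refitted (table, strain, tissue and 3 against 12 weeks), 660 of 712 refits kept the sign, 52 turned it and 0 passed the threshold (limma adjusted p from 0.1315 to 0.9999). Part of these refits could not turn a sign. Strain, tissue and age differences were fitted within 1 table, so leaving out an array of the other table left them unchanged. The count of kept signs is therefore no measure of stability. Array centring gave -0.056 for Kcnj6 and -0.13 for Kcnma1 between tables in BL10 hindlimb and -0.043 for the untreated Kcnma1 strain difference. Quantile normalisation gave -0.22 and -0.050 in BL10 hindlimb and 0.20 for the untreated Kcnj6 tissue difference. Removing the running median along the table gave -0.16 and -0.28 in BL10 hindlimb and -0.27 for the untreated Kcnma1 strain difference. It gave 0.11 (Kcnj6) and 0.16 (Kcnma1) for treated 3 against 12 weeks, and r = -0.316 between the pair in the untreated table. Fitting all arrays gave 0.11 and 0.004117 for Kcnj6 at 3 against 12 weeks, untreated and treated, and r of 0.733 and 0.533, which are descriptions because they include the arrays that selected the pair. A floor for ratios of 0 or below gave 1.07 (Kcnj6) and 1.48 (Kcnma1) in BL10 diaphragm, 0.75 and 0.48 for the mean of the 3 groups, -0.009297 for the untreated Kcnma1 strain difference, 0.083 for the untreated Kcnj6 tissue difference, -1.43 for Kcnma1 at 3 against 12 weeks untreated, and r = 0.711. Array weights gave -0.19 and 0.032 for Kcnj6 in BL10 and mdx hindlimb and 0.12 for its untreated tissue difference. Without the array whose channels name mdx, Kcnma1 stood at -0.072 in BL10 hindlimb. Without the 12-week arrays, Kcnj6 stood at -0.040 in BL10 hindlimb and its untreated tissue difference at 0.0066. In mdx diaphragm the added floor gave -0.27 for Kcnma1 and the added 21-row window -0.89 for Kcnj6. The causes were not tested.

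Leaving out 1 array, table differences ran from -0.55 to 0.062 for Kcnma1 in BL10 diaphragm, -0.53 to 0.38 (Kcnj6) and -0.22 to 0.19 (Kcnma1) in BL10 hindlimb, -0.19 to 0.40 and -0.46 to 0.10 in mdx hindlimb, and -0.41 to 0.056 for Kcnj6 in the mean. Untreated strain differences ran from -0.047 to 0.85 (Kcnj6) and -0.15 to 0.33 (Kcnma1), the treated Kcnma1 strain difference from -0.40 to 0.15, and untreated tissue differences from -0.44 to 0.32 and -0.11 to 0.30. At 3 against 12 weeks, Kcnj6 ran from -1.62 to 0.23 untreated and -0.35 to 0.040 treated, and Kcnma1 from -0.61 to 0.12 treated. The untreated r ran from -0.01997 to 0.665. The mdx diaphragm difference ran from -1.94 to -1.36 for Kcnj6. Other results kept their sign. No paired analysis was possible because the labels give no replicate numbers shared between the groups compared. Signal over background is unknown, and missing ratios, 1 array per age and the unstated direction limit every value.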
